A study of Mus musculus with 20 samples.

Results

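Entry into M phase depends on a small set of enzymes that act on each other, and 10 of their genes were followed here through mouse spermatogenesis: the CDC25 phosphatase genes Cdc25a, Cdc25b and Cdc25c, the cyclin-dependent kinase genes Cdk1 and Cdk2, the inhibitory kinase gene Wee1, the polo kinase gene Plk1, and the aurora kinase genes Aurka, Aurkb and Aurkc. A probe set was taken for a gene when the array's annotation gave that gene alone, which gave 17 probe sets for the 10 genes, of 34945 such probe sets for 18193 genes. For each gene the probe set with the highest mean signal over all arrays was its main probe set. Of the 17 probe sets, 14 reached a log2 signal of 5 in at least 2 arrays and were tested, and every gene had at least 1 tested probe set. The probe sets of Aurka, Cdc25a and Cdk2 named 1440129_at, 1445995_at and 1447617_at stayed below log2 5 on all 20 arrays and were not tested.

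The study sorted cells of adult testis by Hoechst fluorescence into 8 fractions and measured their RNA on Affymetrix MOE430 version 2 arrays. The fractions were spermatogonia (Sp, 4 arrays), pre-leptotene (pL, 3), leptotene-zygotene (L/Z, 3), early-pachytene (eP, 1), mid-pachytene (mP, 2), late-pachytene (lP, 1) and diplotene (D, 2) spermatocytes, and round spermatids (RS, 4). All mice were untreated C57BL/6 x DBA/2J F1 males, 10 to 16 weeks old by the labels. Each array held RNA pooled from several sorts, and the L/Z fraction was by the study's methods a mixture of both stages in about equal parts. Earlier fractions below means Sp, pL and L/Z, and later prophase means mP, lP and D, each fraction counting equally in the fits, while differences between paralogs are averaged over arrays.

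The enzymes form a switch. CDK1 bound to cyclin B drives chromosome condensation, spindle assembly and division, and WEE1 holds it inactive by phosphorylating it. CDC25 phosphatases remove those inhibitory phosphates, PLK1 and the aurora kinases help to trigger and execute the switch, and male germ cells hold it off through the long prophase of meiosis I before they divide. CDC25B is the family member that mouse oocytes need to resume meiosis, CDK2 acts in meiotic prophase itself, and AURKC is the aurora kinase of germ cells, closely related in sequence to AURKB of the chromosomal passenger complex.

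The promoter windows of 4 genes are shown because these genes moved in different directions. Cdc25b and Plk1 were lower in later prophase, though the Plk1 fall rested on the single lP array. Aurka was higher late than early, and Aurkc, the germ-cell aurora, had the largest increase of the 10. Each window runs from 250 bases before to 50 bases after an annotated transcript start (RefSeq, GRCm38.p6), and 7 of the 10 genes had a window in the table used; Cdc25c, Wee1 and Aurkb are named only. Capitals mark matches, on either strand, to letters of motifs known from cell-cycle promoters: the CHR (TTTGAA or TTCGAA), the CCAAT box (CCAAT) and the E2F site (TTTGGCGC or TTTCGCGC), none of which overlapped another in these windows.
Cdc25b (chr2:131186698-131186997, plus strand): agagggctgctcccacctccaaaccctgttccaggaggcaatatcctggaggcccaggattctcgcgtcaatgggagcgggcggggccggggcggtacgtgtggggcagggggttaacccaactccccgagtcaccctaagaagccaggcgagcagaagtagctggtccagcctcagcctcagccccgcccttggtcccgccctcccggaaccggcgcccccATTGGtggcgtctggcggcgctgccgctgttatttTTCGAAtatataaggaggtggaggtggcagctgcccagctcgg
Plk1 (chr7:122159185-122159484, plus strand): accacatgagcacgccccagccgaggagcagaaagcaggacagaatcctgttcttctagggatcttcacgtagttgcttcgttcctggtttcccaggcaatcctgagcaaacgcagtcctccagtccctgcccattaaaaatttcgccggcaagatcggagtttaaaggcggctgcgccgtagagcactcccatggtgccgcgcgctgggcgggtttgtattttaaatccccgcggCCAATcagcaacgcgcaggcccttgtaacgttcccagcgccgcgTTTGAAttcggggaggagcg
Aurka (chr2:172370521-172370820, minus strand): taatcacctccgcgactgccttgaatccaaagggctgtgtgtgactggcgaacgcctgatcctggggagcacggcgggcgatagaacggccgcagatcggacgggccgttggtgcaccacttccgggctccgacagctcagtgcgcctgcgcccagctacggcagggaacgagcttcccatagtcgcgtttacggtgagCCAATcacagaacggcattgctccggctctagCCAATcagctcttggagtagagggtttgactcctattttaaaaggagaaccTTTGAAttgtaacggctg
Aurkc (chr7:6995135-6995434, plus strand): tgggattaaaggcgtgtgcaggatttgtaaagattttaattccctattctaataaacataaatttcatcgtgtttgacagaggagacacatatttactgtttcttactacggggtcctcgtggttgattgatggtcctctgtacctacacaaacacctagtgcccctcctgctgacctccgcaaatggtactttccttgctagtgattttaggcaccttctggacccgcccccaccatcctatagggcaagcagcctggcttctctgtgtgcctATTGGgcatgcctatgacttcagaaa
A CHR match was in the windows of Cdc25b, Cdk1, Plk1 and Aurka, 4 of 7, and in 19.2% of all 32851 windows. In Plk1 and Aurka it began at base 31 and 33 of the transcript, and a CCAAT box began 14 and 19 bases before the start. All 7 windows held a CCAAT box, as did 37.4% of all windows, and the Aurkc window held that match alone. The E2F letters were in the windows of Cdc25a and Cdk1, 2 of 7, and in 0.813% of all windows. The windows of Cdc25b, Aurka, Aurkc and Cdc25a are set on a start inside the annotated gene, so other starts are not centred in them. A match is a run of letters and no evidence that a factor binds there.

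Signals are GC-RMA values taken to log2, where a difference of 1 is a factor of 2, and a level of 5 was used as the floor below which a probe set is near background. A gene was said to rise or fall when its main probe set passed limma's moderated test with Benjamini-Hochberg adjustment at 0.05 over all 22396 tested probe sets. In sorted bulk RNA, fewer cells of a type and less RNA per cell cannot be told apart. The eP and lP fractions had 1 array each and were assumed to vary like the others. Median signals of the arrays were 11.1 to 12.7 on the linear scale, and 34.6% to 39.8% of probe sets were at or above the floor. Markers of macrophages stood apart in the Sp arrays: the summed linear signal of 13 genes was 1050 to 3045 there, 121 to 1535 in pL, 515 in eP, and 136 to 212 in all other fractions, and the pL sum of 1535 was that of replicate 1, with 193 and 121 in the other pL arrays. Csf1r was 9.06 on the log2 scale in pL replicate 1 and 2.15 and 2.12 in the others, and Lyz2 (5.93) and Ptprc (5.32) were above the floor in that pL array alone. The 11 spermatid markers summed to 46568 to 201340 in Sp, 25825 to 41228 in pL and 103558 to 138639 in RS, and all 11 were at or above the floor in every fraction. Markers of spermatogonia were at or above the floor for 10 of 10 measured genes in each fraction through mP, for 3 in D and for 2 in RS. The list of 12 Sertoli cell markers had 3 to 5 genes at or above the floor, with sums of 639 to 7639 over all arrays. In that list Trf was read as Trh, which averaged under the floor in every fraction, so Trf itself was not included.

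Between later prophase and the earlier fractions, 2 of the 10 genes rose (Aurka and Aurkc) and 6 fell (Cdc25a, Cdc25b, Cdc25c, Wee1, Plk1 and Aurkb). Of all tested probe sets, 30.4% rose and 39.2% fell in this comparison. Cdc25b entered the test only through the earlier fractions, where it is high, so its count among the 6 is a description. The median change of the 10 genes was −1.05 on the log2 scale, beside −0.22 over all tested probe sets. When each array was centred on its median over the tested probe sets, which brought that over all probe sets to −0.03, the same 8 genes passed in the same directions. Cdc25b stays a description in this and the following fits. The same 8 also passed when the Sp arrays, with their macrophage and spermatid markers, were left out of the earlier fractions, or when pL replicate 1 was left out. Plk1 was lost with the array project, as numbered in the study's own signal table, as a block (−0.50, adjusted p = 0.0796, limma). It was also lost with the replicate number as a block (−0.44, adjusted p = 0.111, limma) and without the lP array (−0.50, adjusted p = 0.076, limma). Cdk1 and Cdk2 did not pass in any of these fits. In round spermatids against later prophase, Cdc25a, Cdc25c, Plk1 and Aurka rose and Cdk2 fell, where 19.0% of all tested probe sets rose and 28.9% fell. The median change was 0.45 for the 10 genes and −0.17 for all tested probe sets. After centring over the tested probe sets 5358 rose and 5054 fell in that comparison, against 4250 and 6469 without it, and the same 5 genes passed.

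**Figure D1:**
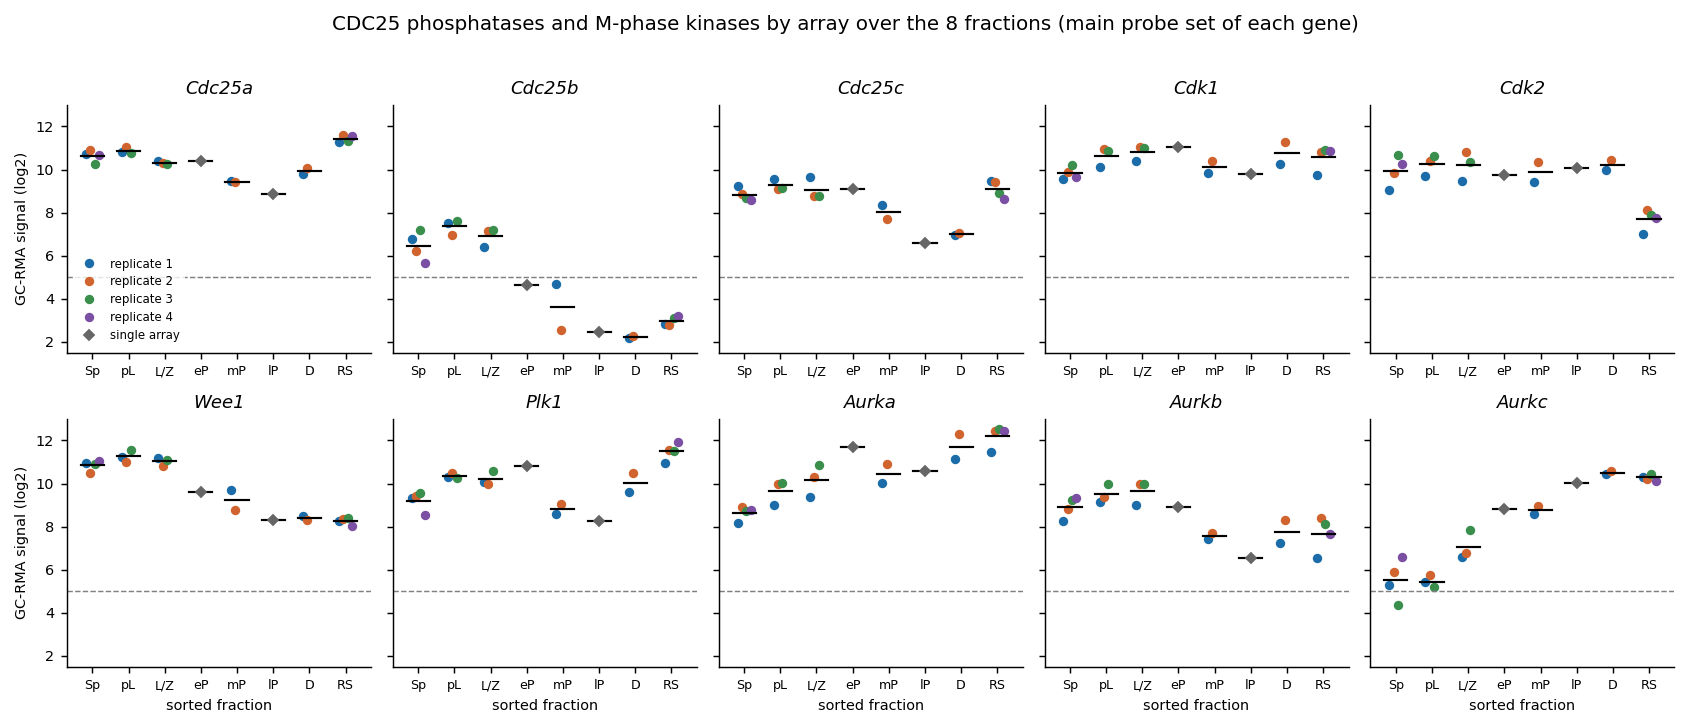
GC-RMA signal (log2) of the main probe set of each of the 10 genes in the 20 arrays, by sorted fraction in developmental order. Points are arrays, coloured by replicate number (diamonds: fractions with 1 array), black bars are fraction means and the dashed line is the floor at log2 5. Cdc25b lies under the floor from early-pachytene on while Aurkc climbs to about 10, and Cdc25a, Cdc25c and Plk1 dip in later prophase and are high again in round spermatids.

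Cdc25a, the phosphatase best known for the G1/S transition, was high in the earlier fractions (probe set 1417131_at). Its log2 signals were 10.71, 10.90, 10.24 and 10.67 in Sp, 10.79, 11.07 and 10.76 in pL, 10.40, 10.29 and 10.28 in L/Z and 10.42 in eP. They were 9.45 and 9.41 in mP, 8.84 in lP, 9.77 and 10.08 in D, and 11.28, 11.60, 11.31 and 11.58 in RS. All 5 arrays of later prophase lay below all 10 of the earlier fractions, and all 4 RS arrays lay above every other array. Cdc25a averaged 9.40 in later prophase and 10.61 in the earlier fractions, a change of −1.21 (SE 0.16, adjusted p = 3.74e-06, limma). It averaged 11.44 in RS and 9.40 in later prophase, a change of 2.04 (SE 0.19, adjusted p = 7.40e-07, limma), or 4.11-fold. The rise was already present against D, by 1.51. The other tested probe set, 1417132_at, moved alike, by −1.20 and 1.89.

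Cdc25b, which activates CDK1 early at the centrosomes of mitotic cells, fell under the floor in pachynema and stayed there (1421963_a_at). On the log2 scale it measured 6.76, 6.19, 7.17 and 5.66 in Sp, 7.50, 6.96 and 7.61 in pL and 6.42, 7.13 and 7.18 in L/Z. It measured 4.63 in eP, 4.67 and 2.54 in mP, 2.44 in lP, 2.20 and 2.26 in D, and 2.82, 2.76, 3.10 and 3.20 in RS. Every array up to L/Z was above the floor and every array from eP on was below it, so the probe set entered the test only through the 10 arrays of the earlier fractions. Cdc25b averaged 2.76 in later prophase and 6.91 in the earlier fractions, where the first is a background level. With every signal under log2 5 raised to 5, the change was −1.91, which is a bound on the fall, since its depth below the floor was not measured. No test is given, because the gene had to differ to be tested. The eP array was the first in stage order under the floor, and all RS arrays were still under it, so no difference between RS and later prophase can be read.

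Cdc25c, the family member usually placed at mitotic entry and known for high expression in testis, also fell in later prophase and rose in round spermatids (1456077_x_at, a probe set whose suffix marks probes that can match other sequences). Its log2 signals were 9.21, 8.86, 8.67 and 8.57 in Sp, 9.55, 9.09 and 9.15 in pL, 9.65, 8.75 and 8.78 in L/Z and 9.08 in eP. They were 8.34 and 7.69 in mP, 6.60 in lP, 6.95 and 7.05 in D, and 9.45, 9.40, 8.92 and 8.65 in RS. Later prophase lay below the earlier fractions without overlap, while the RS arrays lay within the range of the earlier fractions. Cdc25c averaged 7.21 in later prophase and 9.05 in the earlier fractions, a change of −1.84 (SE 0.22, adjusted p = 1.39e-06, limma). It averaged 9.10 in RS and 7.21 in later prophase, a change of 1.90 (SE 0.26, adjusted p = 2.67e-05, limma). Probe set 1422252_a_at, with other probes for the gene, gave −1.84 and 2.33 for the same comparisons, and its lowest array was also lP, at 4.29.

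To compare Cdc25c with Cdc25b, in each array the log2 signal of Cdc25c minus that of Cdc25b was taken, a difference whose changes can be read but whose level cannot, since probe sets differ in brightness. It averaged 4.51 ± 0.59 in later prophase and 2.17 ± 0.62 in the earlier fractions (SD, n = 5 and 10 arrays), and 6.14 ± 0.60 in RS (SD, n = 4). From later prophase on these values hold Cdc25b signals under the floor and are a description. With signals under 5 raised to 5, the difference between later prophase and the earlier fractions was 0.16. Its Cdc25b part is then only a bound on the fall. Whether the paralogs changed unequally therefore cannot be decided, and no test is given. Between RS and later prophase the difference was 1.78 with the floor, where Cdc25b is at the floor in both groups and the value is that of Cdc25c alone.

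**Figure D2:**
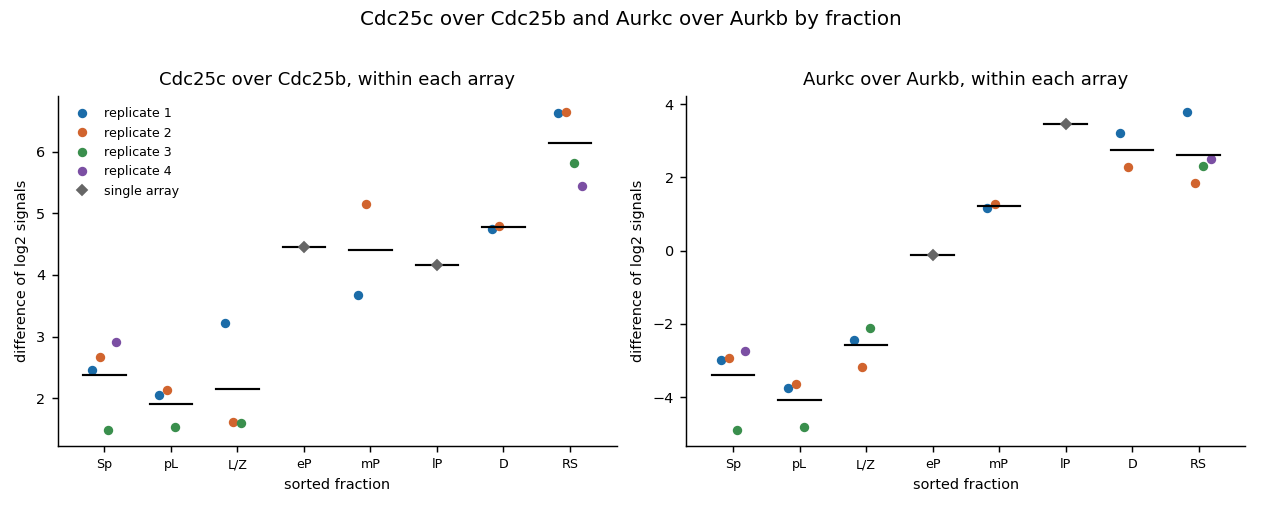
Difference of log2 signals within each array between Cdc25c and Cdc25b (left) and between Aurkc and Aurkb (right), by sorted fraction; points are arrays, diamonds the single early- and late-pachytene arrays, and black bars fraction means. Cdc25c over Cdc25b is 1.49 to 3.22 in the earlier fractions and 3.67 to 5.15 in later prophase, where Cdc25b is under the floor, and Aurkc over Aurkb is −4.89 to −2.12 and 1.15 to 3.46.

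Cdk1, the catalytic partner of cyclin B and the kinase that WEE1 restrains and CDC25 releases, changed little against the spread of its arrays (1448314_at). Its log2 signal was 9.82 and 10.41 in mP, 9.80 in lP and 10.25 and 11.27 in D, against a lowest value of 9.58, a median of 10.29 and a highest value of 11.07 over the 10 arrays of the earlier fractions. The eP array was 11.05 and the RS arrays were 9.73, 10.82, 10.92 and 10.85. In the order of its 8 fraction means, every one of the 7 neighbouring pairs overlapped. The change was −0.21 between later prophase and the earlier fractions (SE 0.26, adjusted p = 0.50) and 0.35 between RS and later prophase (SE 0.32, adjusted p = 0.39), both from limma. RS replicate 1 was more than 1 log2 unit below the other RS arrays and was also the lowest RS array for Cdk2, Plk1, Aurka and Aurkb.

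Cdk2, which works with cyclin E and cyclin A in S phase and at the telomeres of meiotic chromosomes, fell in round spermatids (1416873_a_at). Its log2 signals were 9.04 to 10.65 in Sp, 9.71 to 10.64 in pL, 9.45 to 10.83 in L/Z, 9.76 in eP, 9.44 and 10.36 in mP, 10.07 in lP, and 9.98 and 10.44 in D. The RS arrays were 7.03, 8.13, 7.90 and 7.73, all below every other array. Cdk2 averaged 7.70 in RS and 10.06 in later prophase, a change of −2.37 (SE 0.38, adjusted p = 0.000103, limma), or 5.15-fold lower. Against D alone the change was −2.51 (SE 0.48, adjusted p = 0.00135). Between later prophase and the earlier fractions it was −0.07 (SE 0.32, adjusted p = 0.848), and the 7 fractions before RS could not be ordered, as each neighbouring pair of them overlapped.

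Wee1, the kinase that restrains CDK1, stepped down at the start of pachynema by its main probe set (1416773_at). On the log2 scale its signals were 10.96, 10.49, 10.91 and 11.04 in Sp, 11.24, 10.99 and 11.56 in pL and 11.19, 10.81 and 11.10 in L/Z. They were 9.59 in eP, 9.68 and 8.77 in mP, 8.30 in lP, 8.50 and 8.31 in D, and 8.25, 8.34, 8.38 and 8.04 in RS. All 10 arrays up to L/Z lay above all 10 from eP on. Wee1 averaged 8.65 in later prophase and 11.05 in the earlier fractions, a change of −2.40 (SE 0.19, adjusted p = 1.47e-08, limma), or 5.29-fold lower, and RS against later prophase gave −0.39 (SE 0.22, adjusted p = 0.167).

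The other tested Wee1 probe set, 1416774_at, ran differently. Its log2 signals were 4.67, 6.47, 7.54 and 8.24 in Sp, 4.58, 6.25 and 7.64 in pL and 4.53, 6.33 and 8.58 in L/Z. In L/Z the arrays ran between 4.53 and 8.58, and arrays of replicate 1 were the lowest in all 3 fractions. It was 6.58 in eP, 5.16 and 7.08 in mP, 5.40 in lP, 6.87 and 7.89 in D, and 8.97, 9.36, 9.80 and 9.89 in RS. The RS arrays were above all others, with a change of 3.20 against later prophase (SE 0.85, adjusted p = 0.00524, limma), while later prophase against the earlier fractions gave −0.16 (SE 0.70, adjusted p = 0.853). The 2 probe sets of Wee1 thus had their extremes in round spermatids at opposite ends, and which transcripts each one detects was not tested.

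**Figure D3:**
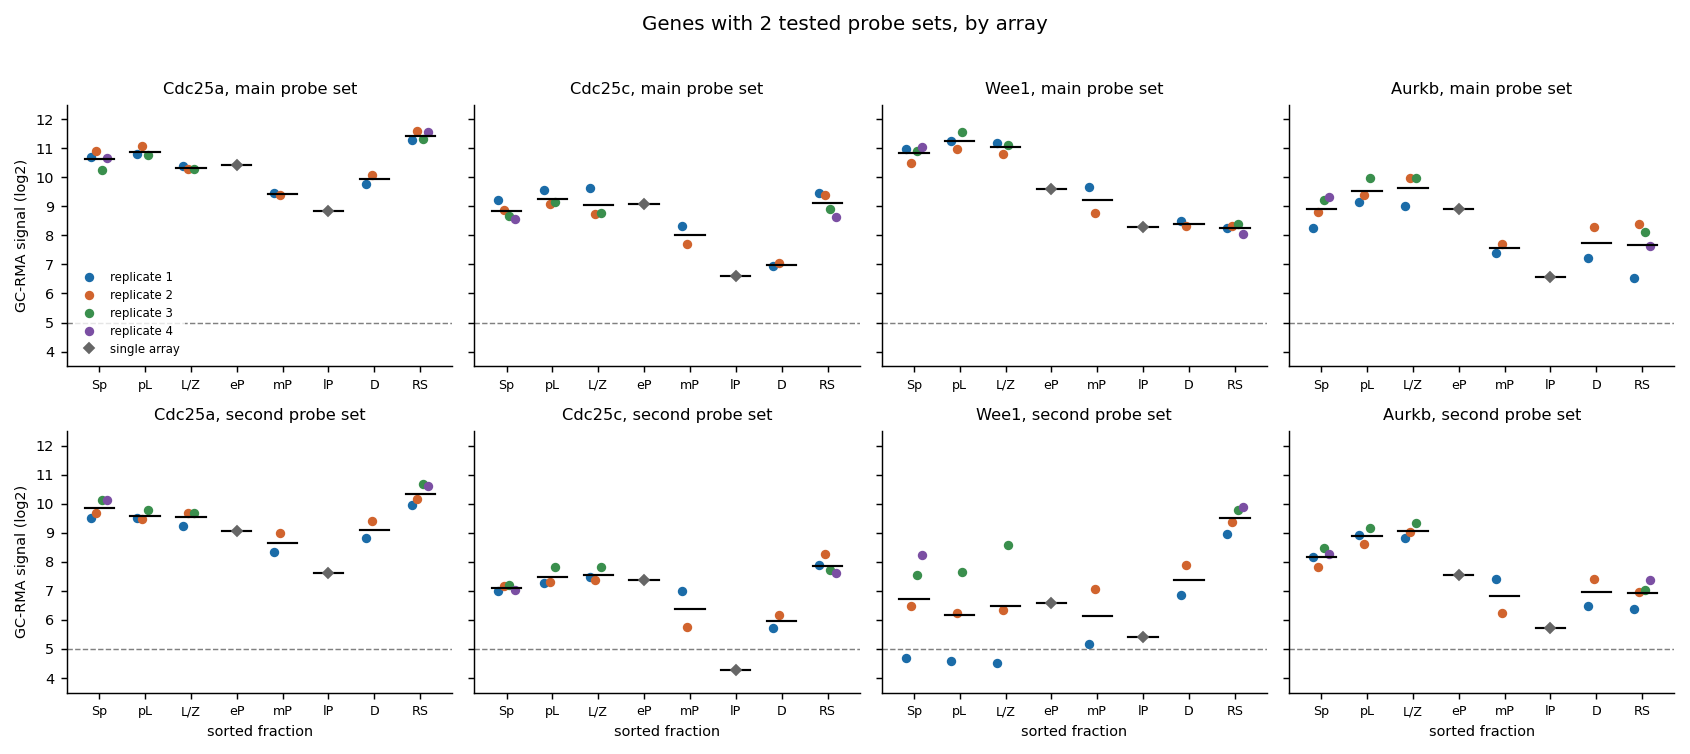
GC-RMA signal (log2) in the 20 arrays of the main probe set (top) and the second probe set (bottom) of Cdc25a, Cdc25c, Wee1 and Aurkb, by sorted fraction; points are arrays, diamonds the single early- and late-pachytene arrays, black bars fraction means and the dashed line the floor at log2 5. The paired panels share their course for Cdc25a, Cdc25c and Aurkb, while for Wee1 the second probe set spreads widely within fractions and is highest in round spermatids, at 8.97 to 9.89.

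Plk1, the polo kinase that phosphorylates CDC25 and WEE1 and helps to take the synaptonemal complex apart, was lowest in mP and lP and highest in RS (1448191_at). The arrays gave Plk1 log2 signals of 9.33, 9.40, 9.56 and 8.55 in Sp, 10.30, 10.50 and 10.27 in pL, 10.08, 10.00 and 10.59 in L/Z and 10.79 in eP. They were 8.57 and 9.06 in mP, 8.26 in lP, 9.60 and 10.48 in D, and 10.93, 11.56, 11.53 and 11.94 in RS. All pL arrays were above all Sp arrays (change 1.15, adjusted p = 0.0985), and all RS arrays were above all others. Plk1 averaged 11.49 in RS and 9.04 in later prophase, a change of 2.45 (SE 0.28, adjusted p = 4.68e-06, limma), or 5.47-fold. It averaged 9.04 in later prophase and 9.93 in the earlier fractions, with overlap, a change of −0.89 (SE 0.23, adjusted p = 0.00273, limma). That fall rested on the single lP array: without it the change was −0.50 (adjusted p = 0.076), and the D arrays then stood 1.22 above mP (adjusted p = 0.0459). Within the array projects 2 and 6, as the study's own signal table numbers them, it was −1.65 and −0.23.

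Aurka, the aurora kinase of centrosomes and spindle poles and an activator of PLK1, was higher in later prophase and highest in RS (1424511_at). The log2 signals of Aurka were 8.16, 8.93, 8.73 and 8.77 in Sp, 9.0, 9.98 and 10.04 in pL, 9.36, 10.28 and 10.87 in L/Z and 11.71 in eP. They were 10.03 and 10.90 in mP, 10.58 in lP, 11.15 and 12.29 in D, and 11.45, 12.45, 12.53 and 12.42 in RS. The Sp arrays were the 4 lowest of all. In the order of means, RS, D and eP came first and overlapped, lP, mP, L/Z and pL followed and overlapped, and Sp came last. Aurka averaged 10.92 in later prophase and 9.50 in the earlier fractions, a change of 1.42 (SE 0.31, adjusted p = 0.000723, limma), and 1.00 without the Sp arrays (adjusted p = 0.0169). It averaged 12.21 in RS and 10.92 in later prophase, a change of 1.29 (SE 0.38, adjusted p = 0.00967, limma). None of the steps tested between fractions passed for Aurka as fitted. With the array project as a block, pL stood 1.05 above Sp (adjusted p = 0.0309) and lP and D stood 0.88 above mP (adjusted p = 0.0397). Within the 3 projects that held both pL and Sp the difference was 0.83, 1.04 and 1.28, and within the 2 that held D and mP it was 1.12 and 1.39.

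Aurkb, the aurora kinase of the passenger complex in mitosis, fell at pachynema (1424128_x_at, whose suffix, as for Cdc25c, marks probes that can match other sequences). Its log2 signals were 8.27, 8.82, 9.22 and 9.32 in Sp, 9.16, 9.39 and 9.99 in pL, 9.01, 9.96 and 9.97 in L/Z and 8.92 in eP. They were 7.41 and 7.72 in mP, 6.56 in lP, 7.22 and 8.29 in D, and 6.53, 8.38, 8.13 and 7.64 in RS. The D array of replicate 2, at 8.29, was the only one of later prophase to reach the lowest Sp array. Aurkb averaged 7.29 in later prophase and 9.36 in the earlier fractions, a change of −2.06 (SE 0.32, adjusted p = 2.93e-05, limma), or 4.18-fold lower, and RS gave 0.38 against later prophase (SE 0.39, adjusted p = 0.464). Probe set 1451246_s_at gave −2.22 and 0.45 for the same comparisons, here without overlap in the first.

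Aurkc, the germ-cell aurora, whose loss in male mice leaves misshapen sperm heads, had the largest rise of the 10 genes (1449364_at). The log2 signals of Aurkc were 5.29, 5.89, 4.34 and 6.59 in Sp, 5.43, 5.74 and 5.18 in pL, 6.59, 6.78 and 7.86 in L/Z and 8.82 in eP. They were 8.56 and 8.98 in mP, 10.03 in lP, 10.43 and 10.56 in D, and 10.32, 10.23, 10.44 and 10.14 in RS. Every array from eP on was above every array before it. Aurkc averaged 9.76 in later prophase and 6.02 in the earlier fractions, a change of 3.75 (SE 0.31, adjusted p = 3.15e-08, limma), or 13.4-fold, and 3.69 with the floor. RS stood at −0.21 against D (SE 0.47, adjusted p = 0.832), a difference within the spread of the arrays.

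The 2 paralogs moved in opposite directions. Aurkc minus Aurkb within an array averaged 2.27 ± 1.07 in later prophase and −3.35 ± 0.93 in the earlier fractions (SD, n = 5 and 10, exact permutation test, two-sided, unadjusted p = 0.000666), a difference of 5.62 without overlap. The fraction means ran −3.38, −4.07 and −2.58 in Sp, pL and L/Z, −0.10 in eP, 1.21, 3.46 and 2.74 in mP, lP and D, and 2.61 in RS. Against later prophase the RS mean was higher by 0.34 (n = 4 and 5, exact permutation p = 0.603). The floor left the first difference at 5.55 (exact permutation test, adjusted p = 0.00266 over the 4 paralog tests), and the Aurkb probe set 1451246_s_at gave 5.76.

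**Figure D4:**
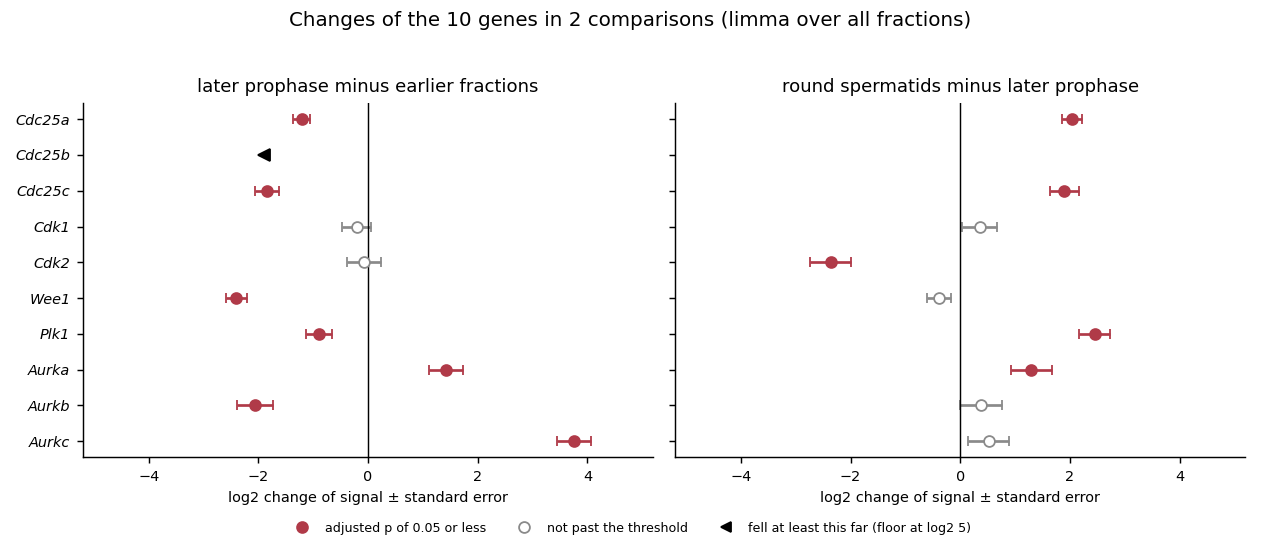
Log2 change of signal with its standard error for the 10 genes, in later prophase against the earlier fractions (left) and in round spermatids against later prophase (right), from limma over all fractions; filled points passed an adjusted p of 0.05. The triangle gives the bound for Cdc25b with the floor (−1.91), and on the right Cdc25b is left out, being under the floor in both groups. Among the circles, Aurkc (3.75) and Wee1 (−2.40) lie at the ends on the left, and on the right Plk1 (2.45) and Cdk2 (−2.37).

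In mP against L/Z, Aurkc rose and Cdc25a, Cdc25b, Cdc25c, Wee1, Plk1 and Aurkb fell, 1 and 6 of 10 genes, where 13.7% and 15.3% of all tested probe sets rose and fell. Cdc25b is counted here as a description only, since it entered the test through the earlier fractions. The changes of the 7, apart from Cdc25b with its mP arrays under the floor, ran between −2.08 (Aurkb) and 1.70 (Aurkc). Of these 6, Wee1 (−1.80) alone passed whichever single array was left out. Without mP replicate 2 only 3 genes passed, Cdc25a (adjusted p = 0.109), Cdc25c (0.326), Aurkb (0.0503) and Aurkc (0.166) being lost in limma's test. Without mP replicate 1, Cdc25a and Plk1 were lost (0.0501 and 0.0827), without L/Z replicate 1 Cdc25c and Aurkc (0.138 and 0.0703), and without L/Z replicate 2 Aurkc (0.0616). Cdc25c was also lost after centring over the tested probe sets (−0.96, adjusted p = 0.0554), and Plk1 with the array project as a block (−0.94, adjusted p = 0.0531). In eP against L/Z, only Wee1 passed, with a change of −1.44 (SE 0.38, adjusted p = 0.0416, limma), where 1.62% of all probe sets rose and 3.14% fell. The Wee1 call was lost without L/Z replicate 1 or 2 (adjusted p = 0.0898 and 0.0746), and also without Sp replicate 1, pL replicate 1, RS replicate 2 or RS replicate 3 (0.0555, 0.0546, 0.0553 and 0.0567). With arrays centred over the tested probe sets 671 rose and 374 fell in this step (714 and 486 after quantile normalization), against 362 and 703 without centring, and Wee1 was then at −1.17 (adjusted p = 0.0813). With the array project as a block it was at −1.25 (adjusted p = 0.127).

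No gene of the 10 passed in pL against Sp, where 0.0714% of all probe sets rose and 0.415% fell, or in L/Z against pL, where 1.86% rose and 0.165% fell. Genes with an unadjusted p under 0.05 from limma were Cdk1, Plk1 and Aurka in the first (higher in pL by 0.80, 1.15 and 1.02). In the second they were Cdc25a (−0.55) and Aurkc (1.62). The share of all probe sets under that unadjusted threshold is not given, so these names are a description only. Of all probe sets, 10 rose and 30 fell between pL and Sp with median-centred arrays, and 6 and 13 after quantile normalization, against 16 and 93 with the deposited scaling, and the macrophage markers differ in the same comparison. Their part in the result was not tested. The total of 109 probe sets that passed in this step ran between 9 without pL replicate 3 and 725 without Sp replicate 4, was 61 without pL replicate 1, and was 904 with the array project as a block. In that blocked fit Cdk1, Plk1 and Aurka passed, higher in pL by 0.92, 1.26 and 1.05 (adjusted p = 0.0339, 0.0311 and 0.0309, limma), and all 3 were higher within each of the 3 projects that held both fractions. Aurkc passed in L/Z against pL in the blocked fit (1.64, adjusted p = 0.0271). In lP and D against mP, only Cdc25c passed, with a change of −1.21 (SE 0.36, adjusted p = 0.0282, limma), where 6.3% of all probe sets rose and 11.1% fell. It was lost without mP replicate 1 (adjusted p = 0.242), D replicate 1 (0.0536) or the lP array (0.0752). With arrays centred over the tested probe sets 2303 rose and 2070 fell in this step, against 1410 and 2479 without centring. Under that centring Cdc25c was lost (−1.01, adjusted p = 0.0663) and Aurkc passed (1.70, adjusted p = 0.0285), and after quantile normalization Cdc25c was lost too (−1.03, adjusted p = 0.073). With the array project as a block Cdc25c (−1.46), Aurka (0.88) and Aurkc (1.69) passed.

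In RS against D, Cdc25a, Cdc25c and Plk1 rose by 1.51, 2.11 and 1.45 and Cdk2 changed by −2.51, 3 and 1 of the 10 genes, where 10.9% of all tested probe sets rose and 14.2% fell. The groups hold 4 and 2 arrays. The Plk1 call was lost without D replicate 1 (change 1.01, adjusted p = 0.151, limma). After centring over the tested probe sets 2912 rose and 2538 fell, against 2431 and 3181. The array projects divide most fractions. Within those that held both sides, the changes of the genes that passed kept the sign of the pooled value. This was so in 16 of 16 cases between later prophase and the earlier fractions and in 10 of 10 between RS and later prophase. It was also so in 8 of 8 between RS and D and in 7 of 7 between mP and L/Z. These genes were called from the same arrays, so equal signs were nearly fixed in advance and are no separate support. Cdc25b, under the floor in later prophase, is among the cases. Within the 2 projects the Aurkc change between later prophase and the earlier fractions was 4.26 and 2.99.

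The surrounding machinery was followed in 8 lists of 67 genes, of which 62 were tested. In later prophase against the earlier fractions 15 of the 62 rose and 35 fell, 24.2% and 56.5%, and their median change was −0.84. In RS against later prophase 11 rose and 23 fell, 17.7% and 37.1%, with a median of −0.16, close to that of all tested probe sets. Among the cyclins and CKS proteins 4 of 8 rose and 4 fell in later prophase. Spdya, the CDK2 activator at meiotic telomeres, averaged 12.92 in later prophase and 8.73 in the earlier fractions (change 4.19, SE 0.26), and Ccna1, the cyclin A of male meiosis, 10.54 and 7.25 (change 3.28, SE 0.49). Cks2 and Ccnb2 also rose, by 1.18 and 0.76. Ccna2, the mitotic cyclin A, averaged 8.44 and 12.41 (change −3.96, SE 0.21), and Cks1b, Ccnf and Ccnb3 fell too, the last with both means under the floor. Ccnb1 had no probe set of its own and was not analysed here.

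The inhibitory and checkpoint kinases moved in both directions. Pkmyt1, the membrane-bound partner of WEE1 in restraining CDK1, averaged 10.58 in later prophase and 7.62 in the earlier fractions (change 2.96, SE 0.18, adjusted p = 1.42e-09, limma), where Wee1 by its main probe set fell. In RS it changed by −1.40 against later prophase. Atr rose by 1.29 in later prophase, while the other 5 tested genes of the list fell: Atm (−4.07), Chek1 (−2.86), Chek2 (−2.47), Cdkn1a (−1.95) and Cdkn1b (−1.22). Of the polo kinases and PLK1 regulators, Btrc, the ubiquitin ligase subunit that marks WEE1 for destruction, rose by 1.77, and Fbxo5, an inhibitor of the anaphase-promoting complex, Plk5 and Plk4 changed by −3.55, −2.76 and −2.03.

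Among the aurora partners, Haspin, the kinase that marks histones for the passenger complex, averaged 12.90 in later prophase and 10.62 in the earlier fractions (change 2.29, SE 0.37), and Sgo2a, the protector of centromere cohesion, rose by 0.79. Cenpa, the centromeric histone, fell (change −4.48), as did Incenp, the scaffold that aurora B and C share (change −1.49), with Bub1 and Tpx2 also falling. Birc5 and Cdca8, the other passenger subunits, had 0.20 and −0.04 and did not pass. In RS Incenp rose by 1.04. The Greatwall list holds both sides of a balance: the kinase gene Mastl with Arpp19 and Ensa, whose products inhibit the phosphatase PP2A, and 4 subunit genes of PP2A, which dephosphorylates CDK1 substrates. All 7 fell in later prophase, with changes of −2.87 for Mastl and −1.46 for Arpp19 on the first side and −2.32 for Ppp2r1a and −2.07 for Ppp2ca on the other, where 39.2% of all tested probe sets fell. The 7 share 1 complex or pathway and were picked with earlier results of these arrays known.

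Of the remaining lists, 3 of 9 other mitotic kinases rose in later prophase (Cit by 1.73, Nek2 by 1.52 and Pbk by 1.19) and 4 fell, with Melk at −3.89 and Lats2 at −3.07, Vrk1 and Lats1 less. Ttk and Bub1b, the kinases of the spindle checkpoint, had −0.11 and −0.22 and did not pass. Among genes of mitotic exit and CDK1 substrates, 2 of 10 rose, Hspa2, the chaperone that spermatocytes need to assemble CDK1 with cyclin B, by 3.30 and Fzr1 by 1.18, and 5 fell, Ube2c (−1.90), Cdc14a (−1.23), Cdc14b, Kif20a and Kif11, with both means of Cdc14a under the floor. In RS Ccnb1ip1, a crossover regulator, changed by −4.66 against later prophase. Cdc20, which starts anaphase, had 0.10. Of the interphase kinase list Mnat1 rose by 0.89 and Ccne1, Cdk4 and Cdk7 fell, with changes of −1.54, −1.24 and −1.09.

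**Figure D5:**
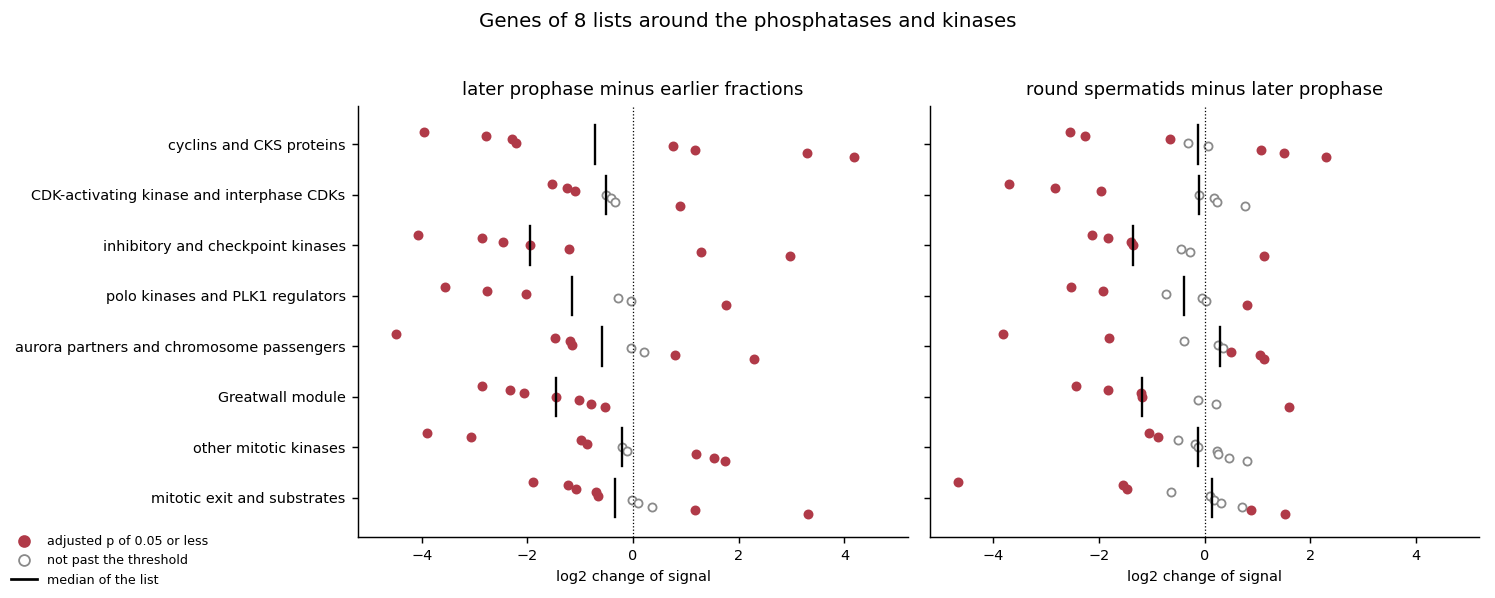
Log2 change of the tested genes of 8 lists in later prophase against the earlier fractions (left) and in round spermatids against later prophase (right); each point is the main probe set of a gene, filled where the adjusted p was 0.05 or less, and black bars are list medians. On the left the Greatwall module lies wholly below 0, while the cyclins and CKS proteins split into 4 genes that rose and 4 that fell.

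The courses of the paralogs were also compared with those of all other genes, over the 8 fraction means and 13098 tested probe sets of 1 gene with a range of at least 2. Cdc25b ran most like Htatsf1 (r = 0.9989), Zfx (0.997) and Pik3ap1 (0.9961), the first and second of which lie on the X chromosome, with its own means under the floor from eP on. Cdc25c ran most like Tmem185a (0.9841), which also lies on the X chromosome, Tmem109 (0.9833) and Klf5 (0.9821). Aurkb ran most like Tgoln1 (0.9776), Dusp2 (0.9743) and Esyt3 (0.9721), and Aurkc most like Muc3 (0.9982), Galnt10 (0.9975) and Msrb3 (0.9975). These correlations describe 8 points that share their arrays, and were the highest of 13098 for each gene.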

How the data were processed

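Gene expression of 20 arrays was analysed. The authors deposited signal intensity values that they had made with GC-RMA (named GCRMA in the submitters' processing notes, version not given in the sources used here), which subtracts a sequence-dependent background, normalizes between arrays and summarises probes into probe sets. No detection calls were used. Of 45037 probe sets, 34945 named 1 gene in the platform annotation, 932 several and 9160 none. Values were taken to log2, and the 22396 probe sets with 2 or more arrays at or above 5 were tested.

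Fractions were fitted together with limma 3.58.1 in R 4.3.3 (12 residual and 3.69 prior degrees of freedom), with Benjamini-Hochberg adjustment at 0.05, two-sided. Paralog differences were compared with exact permutation tests over arrays (4 tests). Whether replicates are separate animals is not given for each array, since each came from pooled sorts, so p-values measure the spread between these samples. The number of arrays limits the precision. Named genes were the 10 members, up to 4 genes of a list with the largest change past the threshold in a comparison (and all of a count of 5 or fewer), and the 3 genes most like each paralog. Birc5, Cdca8, Ttk, Bub1b and Cdc20 were named after their values were seen. Members and lists were chosen with earlier results of these data known. The array projects came from equal signals in the study's own signal table (100% of 1999 compared values in each array). The fit was tested on simulated data. Alternatives covered the filter, the floor, centring, quantile normalization, blocks, a trended prior, other probe sets and single arrays left out. Python 3.11.15, numpy 2.4.6, pandas 2.3.3, scipy 1.17.1 and matplotlib 3.10.9 were used. Promoter sequences are from RefSeq (GRCm38.p6), whose coordinates are those of that build and not of the array files, which name none. Of the 4 paralog tests, those of Cdc25c over Cdc25b are not given, because Cdc25b was under the floor from eP on.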

Additional observations from a re-analysis of the deposited data

Results flagged for a closer look

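Cdk1 was 9.73 on the log2 scale in round spermatids replicate 1, against 10.82 to 10.92 in the other 3 round spermatid arrays. The gap to the nearest array was 0.918 of the whole range, above Dixon's 95% critical value of 0.829 for 4 samples. Aurka was 11.45 in the same array, against 12.42 to 12.53 in the others, with a ratio of 0.895. Of the fractions with 4 arrays, 20 gene groups were checked, and chance gives such a ratio in about 1 of 20. Replicate 1 was also the lowest round spermatid array for Cdk2 (7.03), Plk1 (10.93) and Aurkb (6.53). It was the only round spermatid array of array project 4. In mid-pachytene and diplotene the project 4 array was likewise below that of project 6 for each of these genes. Cdk1 was 9.82 against 10.41 in mid-pachytene and 10.25 against 11.27 in diplotene, and Aurka 10.03 against 10.90 and 11.15 against 12.29. The part of the project in these values was not tested.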

How the results depend on the processing

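The count of genes that passed stayed within 1.5 times of the reported one in later prophase against the earlier fractions (8), round spermatids against later prophase (5) and round spermatids against diplotene (4) under every alternative. Counts in this section that include Cdc25b describe that gene and do not test it. Of 10 genes, none passed in pre-leptotene against spermatogonia, but 2 did with the replicate block and 3 with the array project block. Of all 22396 tested probe sets, 109 passed in this step as fitted, 927 with the replicate block and 904 with the array project block. In leptotene-zygotene against pre-leptotene the count was 0, and 1 with the floor or the array project block (0 to 1 leaving out single arrays). Over all tested probe sets it was 453 as fitted, 373 with the floor and 1031 with the array project block. In early-pachytene against leptotene-zygotene the count of the 10 genes was 1, and 2 with the floor, 0 after centring over tested probe sets, 0 after quantile normalization and 0 with the array project block (0 to 2 leaving out single arrays). All tested probe sets gave 1065 as fitted, 2065 with the floor, 1045 after that centring, 1200 after quantile normalization and 350 with the project block. In mid-pachytene against leptotene-zygotene the count of the 10 genes was 7, and 3 to 7 leaving out single arrays, 3 without mid-pachytene replicate 2. In late-pachytene and diplotene against mid-pachytene it was 1, and 2 with no filter, 3 with the floor, 0 after quantile normalization, 5 with the replicate block, 3 with the array project block, 2 with a trended prior and 2 without late-pachytene (0 to 3 leaving out single arrays). Over all tested probe sets 3889 passed as fitted, 3786 after quantile normalization, 6225 with the replicate block and 4641 with the array project block. Cdc25c over Cdc25b differed by 2.34 between later prophase and the earlier fractions with Cdc25b under the floor. With the floor the difference was 0.16, its Cdc25b part being a bound. Over 2110 single changes compared, 35 newly passed, 29 no longer passed and none that passed turned its sign.

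Same-numbered arrays correlated with a median of 0.335 (37 pairs, lowest −0.17, 33 over 0.1) and different-numbered ones with −0.11, and 14 of 18 arrays correlated best with their own number. This is a hint from the data that equal numbers share something. Equal numbers often fell in the same array project. Replicate 1 was project 2 in spermatogonia, pre-leptotene and leptotene-zygotene, and project 4 in mid-pachytene, diplotene and round spermatids. Replicate 2 was project 5 or 6 in every fraction. The part of the project in these correlations was not tested. The labels do not link equal numbers and not every pair was over 0.1, so the fits were left without the block. The replicate block gave paralog differences of 2.16 and 1.84 for Cdc25c over Cdc25b and 5.11 and 0.79 for Aurkc over Aurkb. It lost Plk1 in later prophase against the earlier fractions (−0.44, adjusted p = 0.111), and gained Cdk1 and Aurka in pre-leptotene against spermatogonia, Wee1, Plk1, Aurka and Aurkc in late-pachytene and diplotene against mid-pachytene, and Wee1 in round spermatids against later prophase. Signals under log2 5 are near background, so the depth of the Cdc25b fall is not measured, and the early- and late-pachytene fractions rest on 1 array each.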

Other observations

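At the first steps, where none of the 10 genes passed, Ccnf was higher by 1.26 in pre-leptotene cells than in spermatogonia (adjusted p = 0.0491, limma), and Spdya was higher by 2.04 in leptotene-zygotene than in pre-leptotene cells (adjusted p = 0.0165, limma). They were 1 of 62 tested list genes in each comparison.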
